A study of Mus musculus with 6 samples.

Results

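The 10 genes described here encode the machinery that writes, copies, protects and removes cytosine methylation in the mouse: Dnmt1, Uhrf1, Dnmt3a, Dnmt3b, Dnmt3l, Tet1, Tet2, Tet3, Tdg and Zfp57. They were chosen by name out of 21755 protein-coding genes on chromosomes 1 to 19 and X, and every annotated transcript start was kept apart, which gave 93 starts of 93196. Whole-genome bisulfite sequencing by post-bisulfite adaptor tagging (PBAT) was available for 3 kinds of mouse pluripotent stem cell, with 2 libraries each. Advanced pluripotent stem cells (ASC) were grown, per the study, in Activin A, BMP4, CHIR99021 and LIF, embryonic stem cells (ESC) in 2i/LIF as the naive reference, and epiblast stem cells (EpiSC) represent the primed state. All 6 libraries are labelled wild type and 129S2/SvPasCrl, the study describes the cells as female and the ASC lines as derived from crosses of mixed background with reporter transgenes, so the strain label and the derivation differ. The labels call the 2 libraries of a condition biological replicates but do not name separate lines. The p-values set each difference against the spread between these libraries, moderated over all regions of a kind. Whether that spread covers separate lines is not known.

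DNA methylation at CpG sites is copied after replication by Dnmt1, which Uhrf1 brings to hemimethylated DNA. It is set anew by Dnmt3a and Dnmt3b, with Dnmt3l as a cofactor that has no catalytic activity of its own. Tet1, Tet2 and Tet3 oxidise 5-methylcytosine, Tdg excises the further oxidised bases, and Zfp57 is a zinc finger protein that protects methylation at imprinted regions. Naive mouse cells are known for low genomic methylation and primed cells for high methylation. Bisulfite reads do not tell 5-methylcytosine from 5-hydroxymethylcytosine, and these files hold no expression.

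The libraries held between 63803799 and 74925271 CpG reads, a mean coverage of 2.96 to 3.46 per site, and the level over all reads was 59.8% and 60.2% in ASC, 17.9% and 18.2% in ESC and 81.0% and 80.2% in EpiSC. The labels were set beside the promoters of 3 genes of naive cells. The study itself names these 3 among genes with demethylated promoters in ASC compared with EpiSC. Their levels in these groups are therefore a description and not a separate check. At the Zfp42 starts both ASC libraries were at 0%, both ESC libraries at 0% and the EpiSC libraries between 93.7% and 98.1%. Dppa3 was at 7.0% to 12.2% in ASC, 1.3% to 2.5% in ESC and 97.3% to 100% in EpiSC. Tcl1 was at 1.2% to 6.2% in ASC, 0% to 1.9% in ESC and 93.0% to 94.8% in EpiSC.

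A promoter is here the window from 1000 bp before to 100 bp after a start, and its level is the methylated share of all CpG observations in it. Of the 93 starts, 72 had at least 40 observations in every library and were tested, and 21 were not (Tet1 7, Tet2 5, Tdg 5, Dnmt3a 2 and Zfp57 2). A start was called when the moderated quasi-binomial test gave an adjusted p under 0.05 and the means were 20 or more percentage points apart. In ASC against EpiSC, 29 of the 72 starts, in 9 of the 10 genes, were lower and 0 higher. Of all starts tested, 30.2% were lower and 0.16% higher. The members' share was 40.3%. Under other settings it was set against the share of all starts called in either direction. It was not above that share with windows reaching 500 bp to either side (25.7% against 29.0%). Nor was it with a minimum of 100 observations (16.2% against 17.2%). It was above with starts of protein-coding transcripts only (36% against 26.4%) and with no minimum difference (80.6% against 59.0%). In ASC against ESC, 21 starts in 7 genes were higher and 0 lower, against 27.7% of all starts. In EpiSC against ESC, 35 starts in 9 genes were higher and 0 lower, against 43.9% and 0.00469% of all starts. Neighbouring starts share CpG sites, and the 93 windows form 45 groups of overlapping windows. Of these groups, 32 held a tested start and 20 a start lower in ASC than in EpiSC. No share over all genes or all groups was computed beside these counts of genes and groups. The members had more tested starts a gene, 72 in 10 genes, against 63941 in 16009 for all. The Wilson 95% interval of a 50% level runs from 35.2% to 64.8% with 40 observations and from 45.1% to 54.9% with 400, and covers counting error only. It treats every CpG observation as independent, although neighbouring sites can lie on the same read, so it can be too narrow.

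**Figure D1:**
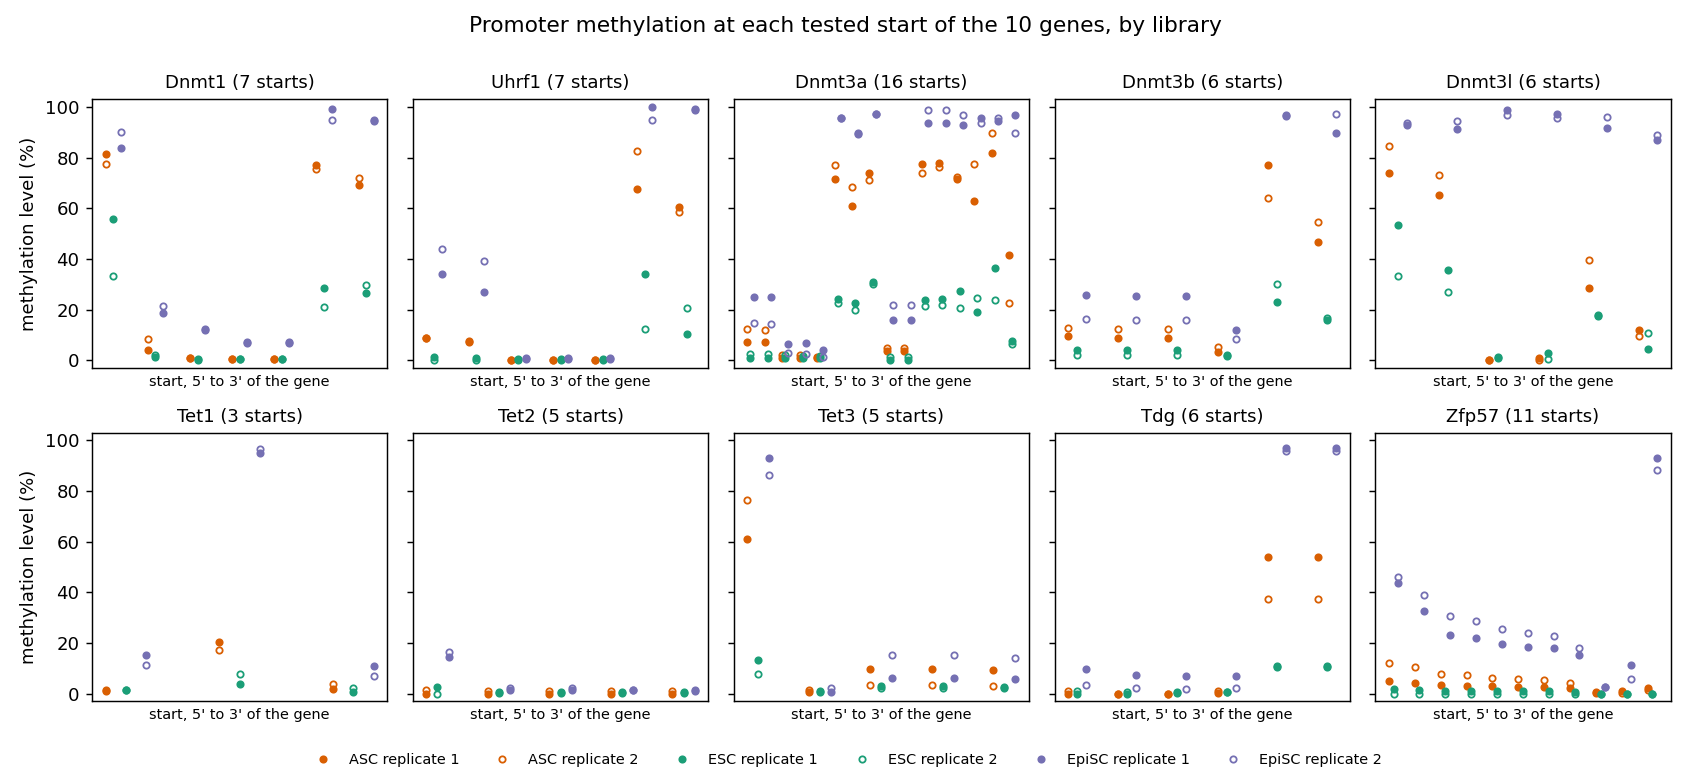
Promoter methylation level (%) in each of the 6 libraries at every tested start of the 10 genes, with starts ordered from 5' to 3' along each gene (orange ASC, green ESC, purple EpiSC; filled and open circles are the 2 replicates). Dnmt3l-201 has 0% in both ASC libraries and at least 96.7% in both EpiSC libraries, and the 5 tested Tet2 starts are at or below 16.3% in every library.

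The starts fell into 4 classes by their group means. In 33 starts of 9 genes, all but Dnmt3l, every group was under 20%, and these windows held a median of 51 CpG sites. This class made up 45.8% of the members' tested starts and 53.0% of all starts. In 5 starts EpiSC was at 80% or more and ASC under 20%: Dnmt3l-201, Dnmt3l-208, the shared start of Dnmt3l-202, Dnmt3l-203 and Dnmt3l-206, Tet1-201 and Zfp57-205. They were 6.94% of the members' tested starts, against 2.51% of all starts. In 22 starts EpiSC was at 80% or more and ASC at 20% or more, and these held a median of 15 CpG sites (30.6% of the members' starts and 25.03% of all). The remaining 12, of Dnmt3b, Uhrf1 and Zfp57, had an EpiSC level of 20% to 80% (16.7% and 18.8%).

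The following stretches show the DNA behind these classes. Each is 300 bases upstream of a start on GRCm38, written 5' to 3' on the gene's strand with CpG sites in capitals. Except where said, it is the 300-base slice with the most reads in its least covered library among those within 1000 bp of the start that overlap no annotated UTR. Dnmt3l-201 (chr10:78049002-78049301, plus strand, 11 CpG sites) is shown as the start with the largest difference among the members, Tet1-201 (chr10:62880435-62880734, minus strand, 5 CpG sites) as a CpG-poor start that changed, and Tet3-203 (chr6:83456563-83456862, minus strand, 44 CpG sites) as a CpG-rich one low in all groups. Uhrf1-201 is shown in a distal slice (chr17:56302531-56302830, plus strand, 8 CpG sites) and in the 300 bases next to the start (chr17:56303021-56303320, 10 CpG sites), because its window is split between them.
Dnmt3l-201: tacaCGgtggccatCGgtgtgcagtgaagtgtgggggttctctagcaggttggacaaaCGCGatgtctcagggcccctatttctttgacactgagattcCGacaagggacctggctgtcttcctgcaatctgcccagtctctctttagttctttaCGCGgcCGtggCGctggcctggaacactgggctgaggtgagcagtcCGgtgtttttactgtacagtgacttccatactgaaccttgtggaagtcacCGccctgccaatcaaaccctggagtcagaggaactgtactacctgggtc
Tet1-201: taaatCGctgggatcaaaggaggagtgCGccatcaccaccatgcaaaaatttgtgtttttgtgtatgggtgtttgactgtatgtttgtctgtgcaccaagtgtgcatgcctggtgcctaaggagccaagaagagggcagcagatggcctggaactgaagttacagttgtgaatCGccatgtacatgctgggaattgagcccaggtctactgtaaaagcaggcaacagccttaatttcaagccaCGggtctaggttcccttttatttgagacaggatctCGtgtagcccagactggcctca
Uhrf1-201 distal: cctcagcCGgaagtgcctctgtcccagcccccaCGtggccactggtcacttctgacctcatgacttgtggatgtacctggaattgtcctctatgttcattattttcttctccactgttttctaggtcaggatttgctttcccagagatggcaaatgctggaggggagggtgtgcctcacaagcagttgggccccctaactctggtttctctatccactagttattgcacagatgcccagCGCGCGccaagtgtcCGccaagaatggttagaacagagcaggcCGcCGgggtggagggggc
Uhrf1-201 next to the start: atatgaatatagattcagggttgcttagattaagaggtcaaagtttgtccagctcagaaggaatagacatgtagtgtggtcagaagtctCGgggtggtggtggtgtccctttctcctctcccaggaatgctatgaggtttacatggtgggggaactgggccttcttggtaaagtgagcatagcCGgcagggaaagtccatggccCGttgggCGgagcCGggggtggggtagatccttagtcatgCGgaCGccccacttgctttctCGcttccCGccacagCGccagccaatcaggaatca
Tet3-203: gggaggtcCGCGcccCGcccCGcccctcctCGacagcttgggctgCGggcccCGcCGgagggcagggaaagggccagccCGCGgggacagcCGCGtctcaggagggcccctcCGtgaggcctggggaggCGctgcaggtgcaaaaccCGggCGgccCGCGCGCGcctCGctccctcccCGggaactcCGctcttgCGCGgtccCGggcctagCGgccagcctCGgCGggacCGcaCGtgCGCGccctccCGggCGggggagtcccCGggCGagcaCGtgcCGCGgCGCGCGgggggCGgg

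In the Dnmt3l-201 slice, 0 of 80 and 0 of 55 observations were methylated in ASC and 64 of 64 and 64 of 65 in EpiSC. In the Tet3-203 slice, 0 of 167 and 2 of 115 were methylated in ASC and 0 of 200 and 9 of 246 in EpiSC. CACGTG, the E-box hexamer, occurred 2 times in the Tet3-203 slice, 1 time in the distal Uhrf1-201 slice and not in the other 3. TGCCGC, the core motif bound by Zfp57, was searched on both strands and occurred 1 time in the Tet3-203 slice and in none of the other 4. Over the promoter windows from 1000 bp before to 100 bp after a start, CACGTG was present in 29 of the members' 93 windows (31.2%) and in 18.1% of all 93196, and TGCCGC in 23 (24.7%) and in 26.1% of all. Overlapping windows share matches, so these counts are a description.

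Dnmt1 (chr9:20907209-20959888, minus strand) copies methylation to the new strand. The starts Dnmt1-203 and Dnmt1-207, with the same 56 CpG sites, were at 0.57% and 0.51% in ASC, 0.46% and 0.39% in ESC and 7.0% and 6.8% in EpiSC (-6.3 points, adjusted p = 0.00094, under the 20 points required). Dnmt1-205, with 32 CpG sites, was at 0.88% and 0.90% in ASC and 12.1% and 12.2% in EpiSC. Dnmt1-201, with 19 CpG sites, was at 4.0% and 8.3% in ASC, 1.4% and 2.1% in ESC and 18.6% and 21.2% in EpiSC, a difference of ASC from EpiSC of -13.7 points (adjusted p = 0.0082) that was also under the 20 and did not pass the test without ASC replicate 1 (-11.6 points, adjusted p = 0.073). In windows reaching 500 bp to either side these differences were smaller, at -0.63 and -0.65 points for Dnmt1-203 and Dnmt1-207 (adjusted p = 0.35 for both), -0.37 for Dnmt1-205 (adjusted p = 0.61, from -11.2) and -3.2 for Dnmt1-201 (adjusted p = 0.015). The upstream start Dnmt1-202 was methylated in every group, at 81.5% and 77.6% in ASC, 55.8% and 33.3% in ESC and 83.7% and 90.2% in EpiSC. There ASC was higher than ESC by 35.0 points (adjusted p = 0.0042) and its difference from EpiSC did not pass the test (-7.4 points, adjusted p = 0.39). The 2 Dnmt1 starts called lower in ASC than in EpiSC were those of retained-intron transcripts inside the gene: Dnmt1-206 at 76.9% and 75.6% against 99.2% and 94.9%, and Dnmt1-204 at 69.1% and 71.9% against 94.9% and 94.5%. The Dnmt1-206 difference lost its call without EpiSC replicate 1 (-18.6 points), after thinning to the shallowest library (-19.1) and in windows reaching 500 bp to either side (-19.5).

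Uhrf1 (chr17:56303321-56323486, plus strand), which recognises hemimethylated CpG, had neighbouring starts with different profiles. Uhrf1-201 was at 8.6% and 8.8% in ASC, 1.3% and 0% in ESC and 33.9% and 43.8% in EpiSC, so the groups did not overlap (ASC minus EpiSC -30.1 points, adjusted p = 0.00024). Uhrf1-203, 79 bp downstream, was at 7.0% and 7.5% in ASC and 27.1% and 39.3% in EpiSC (-25.9 points, adjusted p = 0.00042), and at -19.8 points without EpiSC replicate 2. Uhrf1-202, Uhrf1-204 and Uhrf1-207, 992 to 1086 bp into the gene, were under 1% in every library. The reads placed the difference in the distal part of the Uhrf1-201 window: in the distal slice printed above 5 of 51 and 5 of 52 observations were methylated in ASC and 29 of 31 and 44 of 47 in EpiSC, and next to the start 0 of 14 and 0 of 22 in ASC and 0 of 47 and 0 of 44 in EpiSC. With windows reaching 500 bp to either side, neither Uhrf1-201 (-1.92 points, adjusted p = 0.080) nor Uhrf1-203 (-0.90 points, adjusted p = 0.15) was called. Inside the gene Uhrf1-206 was lower in ASC, at 60.4% and 58.5% against 98.9% and 99.0%. Uhrf1-205, at 67.7% and 82.6% against 100% and 94.8%, was called as well (adjusted p = 0.011), but lost the call without ASC replicate 1 (-14.8 points) and without either EpiSC library (-19.6 and -24.9 points), and with the replicate block (adjusted p = 0.099).

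Of the de novo genes, Dnmt3l had the largest difference between ASC and EpiSC at a tested start and in the gene body. In the downstream flank its difference was the smallest (-12.0 points, against -23.9 in Dnmt3a and -30.9 in Dnmt3b). Dnmt3l (chr10:78041947-78063622, plus strand) encodes the cofactor of Dnmt3a and Dnmt3b. At Dnmt3l-201 both ASC libraries were at 0%, ESC was at 1.2% and 0.82% and EpiSC at 98.8% and 96.7%. The ASC levels rest on 0 of 93 and 0 of 67 observations. These allow levels of up to 3.23% and 4.48% if observations are independent, and higher ones where sites share a read. ASC was lower than EpiSC by 97.7 points (adjusted p = 1.04e-07), and its difference from ESC did not pass the test (-0.99 points, adjusted p = 0.28). Dnmt3l-208, whose window overlaps it, was at 0.75% and 0% in ASC, 2.8% and 0.63% in ESC and 97.4% and 95.5% in EpiSC. Further into the gene, the start of Dnmt3l-202, Dnmt3l-203 and Dnmt3l-206 was at 12.1% and 9.6% in ASC, 4.5% and 10.7% in ESC and 87.0% and 88.7% in EpiSC, and Dnmt3l-207 at 28.4% and 39.5%, 17.5% and 17.7%, and 91.6% and 95.9%. The upstream starts had another profile: Dnmt3l-205 was at 65.0% and 73.1% in ASC, 35.5% and 26.9% in ESC and 91.4% and 94.4% in EpiSC, and Dnmt3l-204 at 74.0% and 84.7%, 53.3% and 33.3%, and 93.0% and 93.7%. These 2 windows lie inside Aire on the other strand, and the Dnmt3l-205 difference was -19.8 points without ASC replicate 1. In windows reaching 500 bp to either side it was -45.6 points, and Dnmt3l-204 was called as well (-25.5 points, adjusted p = 0.00066, from -13.9). In the main windows the Dnmt3l-204 difference was -8.6 points without ASC replicate 1. It did not pass the test with the replicate block (adjusted p = 0.13). Dnmt3l was the only one of the 10 genes with no tested start under 20% in EpiSC.

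The 3 starts of other genes closest to Dnmt3l-201 in their 6 library levels were those of Car10, Ndufa13 and Yjefn3. Their root mean square distances were 0.79, 0.87 and 0.91 points, out of 312 starts within 5 points. The Ndufa13 and Yjefn3 starts, at 69902558 and 69902712 on chromosome 8, have overlapping windows and are not separate promoters. The 3 starts closest to Zfp57-205 were those of Elmo1, Macf1 and Rpl13a, at 0.63, 0.69 and 0.80 points, out of 546.

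**Figure D2:**
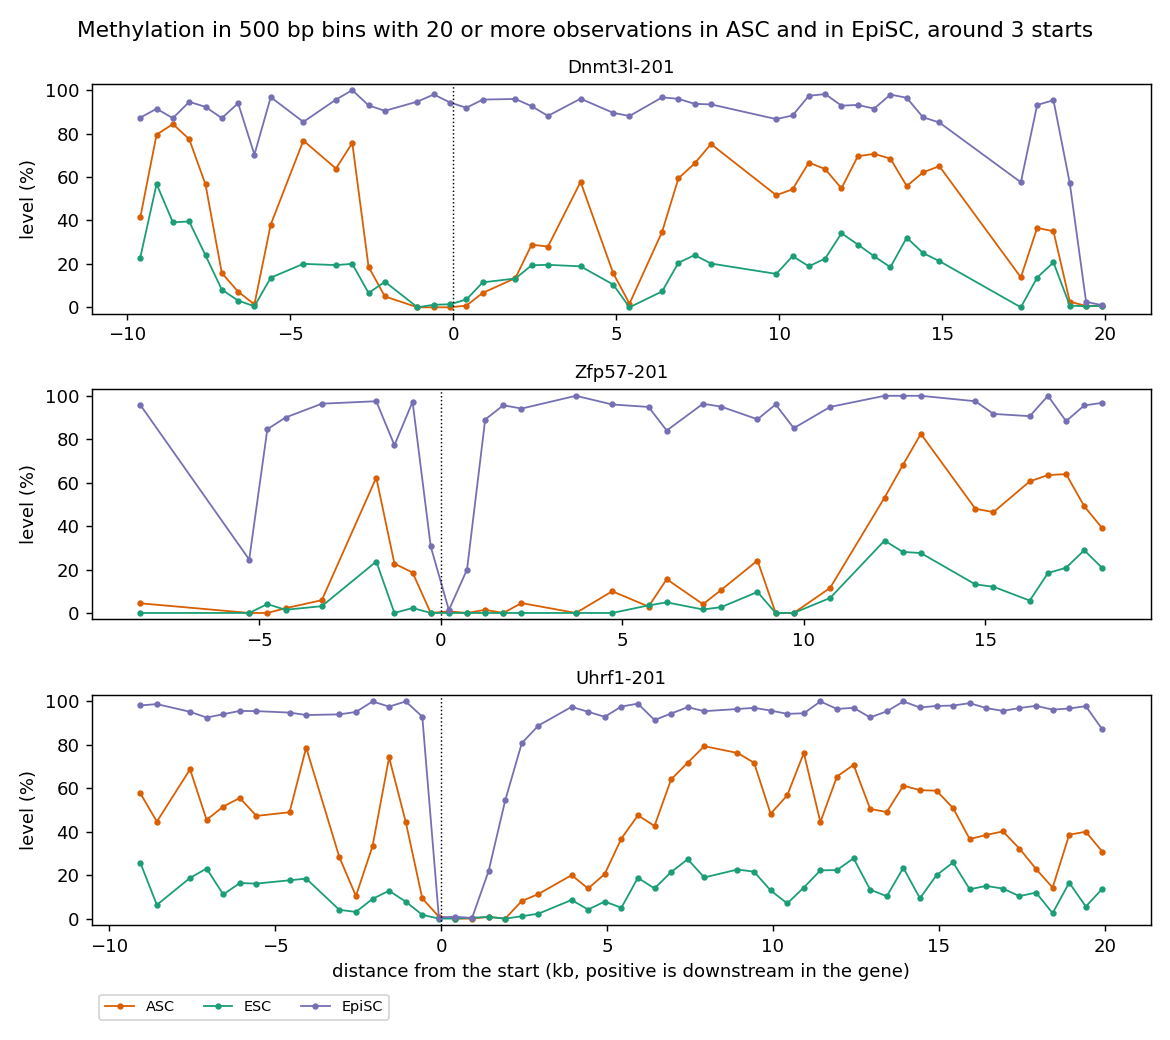
Methylation level (%) in 500 bp bins against the distance (kb) from the Dnmt3l-201, Zfp57-201 and Uhrf1-201 starts, pooled over the 2 libraries of each group, with lines joined across bins of too few observations. At Dnmt3l-201 ASC and ESC dip to the floor where EpiSC stays above 80%, and at Zfp57-201 and Uhrf1-201 all 3 groups are low at the start and EpiSC rises within 2.5 kb of it.

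Dnmt3a (chr12:3806007-3914443, plus strand) and Dnmt3b (chr2:153649450-153687730, plus strand) are the catalytic de novo enzymes. At the CpG-rich start of Dnmt3a-201, with 120 CpG sites, levels were 1.1% and 2.2% in ASC, 0.74% and 1.9% in ESC and 6.4% and 2.8% in EpiSC, and the ranges of ASC and EpiSC did not overlap although the test was not passed (adjusted p = 0.12). The internal start shared in its reads by Dnmt3a-203 and Dnmt3a-205 was at 3.8% and 4.8% in ASC, 0% and 1.2% in ESC and 16.0% and 21.8% in EpiSC (-14.6 points, adjusted p = 0.0037, under the 20 points required, and -5.6 and -4.9 points in windows reaching 500 bp to either side). Of the tested Dnmt3a starts, Dnmt3a-210 had the largest difference, at 41.4% and 22.4% in ASC, 7.7% and 6.5% in ESC and 96.6% and 89.7% in EpiSC (-61.3 points, adjusted p = 3.56e-05). The other 6 called Dnmt3a starts (Dnmt3a-215, Dnmt3a-208, Dnmt3a-211, Dnmt3a-209, Dnmt3a-207 and Dnmt3a-214) were at 60.7% to 77.4% in ASC libraries and 89.4% to 98.9% in EpiSC libraries, with differences between -20.7 and -25.0 points. Of these, Dnmt3a-215 (-18.7 points) and Dnmt3a-214 (-17.3) fell under the 20 points without ASC replicate 1, and Dnmt3a-209 without ASC replicate 2 (-18.97) or EpiSC replicate 2 (-18.0) and after thinning (-17.7). In windows reaching 500 bp to either side Dnmt3a-215 (-14.4 points), Dnmt3a-209 (-16.4) and Dnmt3a-207 (-19.9) were under the 20 points, and Dnmt3a-214 was at -41.9. A pair of starts had too few observations to be tested. Dnmt3a-212, at the 5' end, was at 25.5% and 32.1% in ASC, 1.6% and 7.9% in ESC and 90.4% and 80% in EpiSC, and the internal Dnmt3a-213 at 25.4% and 28.3%, 11.1% and 2.3%, and 93.2% and 89.4%.

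The 4 Dnmt3b starts at the 5' end lay within 167 bp and were at 3.4% to 12.9% in ASC, 1.5% to 4.0% in ESC and 8.2% to 25.6% in EpiSC. The differences between ASC and EpiSC were -5.9 to -9.8 points, none called. They were -4.0 to -5.1 points without EpiSC replicate 1, and -0.70 to -2.9 points in windows reaching 500 bp to either side. The internal start Dnmt3b-212 was at 46.8% and 54.5% in ASC, 16.0% and 16.7% in ESC and 89.8% and 97.2% in EpiSC (-42.8 points, adjusted p = 0.00019). Dnmt3b-211 was at 77.1% and 64.1% in ASC against 96.8% and 96.3% in EpiSC (-26.0 points, adjusted p = 0.00040), and its difference was -19.5 points without ASC replicate 2. Both are retained-intron transcripts.

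The 3 oxidising enzymes had 10, 10 and 5 annotated starts, of which 3, 5 and 5 were tested, and the genes were not compared by a test. At Tet1 (chr10:62804570-62908996, minus strand), Tet1-201 was at 20.5% and 17.4% in ASC, 3.9% and 7.7% in ESC and 94.9% and 96.7% in EpiSC (ASC minus EpiSC -76.8 points, adjusted p = 2.02e-06). ASC was above ESC there by 13.1 points (adjusted p = 0.020), under the 20 points required. Tet1-207, with 27 CpG sites, was at 1.1% and 1.4% in ASC, 1.6% and 1.4% in ESC and 15.4% and 11.5% in EpiSC (-12.2 points, adjusted p = 0.0031, and -2.4 points in windows reaching 500 bp to either side). Tet1-206, with 32 to 59 observations a library and so not tested, was at 16.7% and 17.0% in ASC, 0% in both ESC libraries and 91.5% and 96.9% in EpiSC, and Tet1-209, also not tested, at 0% in both ASC and both ESC libraries and 69.0% and 71.7% in EpiSC. Of the other untested starts, Tet1-208 was at 84.4% and 66.7% in ASC, 22.0% and 25.6% in ESC and 97.96% and 97.1% in EpiSC. The shared sites of Tet1-203, Tet1-204 and Tet1-205 were at 76.6% and 64.3% in ASC, 34.1% and 28.6% in ESC and 91.1% and 88.5% in EpiSC. Tet1-210 was at 2.7% and 2.2% in ASC, 1.6% and 1.4% in ESC and 41.2% and 17.1% in EpiSC.

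Tet2 (chr3:133463679-133545139, minus strand) had 5 tested starts within 853 bp and 0 called in any comparison. Tet2-205 was at 0% and 1.5% in ASC, 2.6% and 0% in ESC and 14.5% and 16.3% in EpiSC (-14.6 points, adjusted p = 0.0055, and -5.3 points in windows reaching 500 bp to either side). The other 4 were at most at 2.09% in every library. The 5 Tet2 starts not tested lie further inside the gene, with as few as 2 observations in a library, and were at 53.5% to 100% in ASC and 75% to 100% in EpiSC. Tet3 (chr6:83362373-83459084, minus strand) had its CpG-rich start Tet3-203 at 0.59% and 1.6% in ASC, 1.0% and 0.80% in ESC and 0.76% and 2.4% in EpiSC, where the groups overlapped. The most upstream start, Tet3-204, was at 61.2% and 76.3% in ASC, 13.2% and 7.7% in ESC and 93.0% and 86.5% in EpiSC. Its call against EpiSC (-21.0 points, adjusted p = 0.020) was lost with the replicate block (adjusted p = 0.080), without ASC replicate 1 (-13.5 points) and without either EpiSC library (-17.7 and -24.2 points).

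Tdg (chr10:82629828-82650799, plus strand), the glycosylase, had 4 starts at its 5' end at 0% to 1.2% in ASC and ESC and 1.7% to 9.7% in EpiSC, none called. In windows reaching 500 bp to either side Tdg-206 was at -19.5 points (adjusted p = 7.13e-05, from -4.0), under the 20 points required. The others at the 5' end were then at 0.023 to 0.028 points. The starts Tdg-202 and Tdg-210, 14610 and 14650 bp into the gene and with the same 31 CpG sites, were at 54.0% and 37.3% in ASC, 10.9% and 10.6% in ESC and 96.8% and 95.8% in EpiSC (-50.7 points, adjusted p = 2.64e-05). The 5 Tdg starts not tested, also inside the gene, were at 57.9% to 78.6% in ASC, 2.6% to 37.5% in ESC and 85.2% to 97.1% in EpiSC. Zfp57 (chr17:37001163-37010635, plus strand) had overlapping windows at its starts from Zfp57-204 to Zfp57-206. These were low in ASC (2.4% to 12.2%) and ESC (0% to 1.9%), and EpiSC went from 43.8% and 46.0% at Zfp57-204 to 15.3% and 17.9% at Zfp57-206. The windows held nearly the same methylated EpiSC observations, 21 of 48 and 29 of 63 at Zfp57-204 and 21 of 137 and 30 of 168 at Zfp57-206, so the lower levels came from added unmethylated ones. In 500 bp bins EpiSC was at 30.6% in the bin of Zfp57-204 and at 1.3% in the next. Of these, Zfp57-204, Zfp57-201, Zfp57-213 and Zfp57-209 were called. Zfp57-213 and Zfp57-209 fell under the 20 points without ASC replicate 1 (-19.2 and -18.2) or EpiSC replicate 2 (-17.5 and -16.9). In windows reaching 500 bp to either side none of the 4 was called (-1.9 to -3.1 points), and Zfp57-212 was (-64.2 points, adjusted p = 6.55e-06). At Zfp57-205, further into the gene, ASC was at 2.2% and 1.4%, ESC at 0% and EpiSC at 93.0% and 88.1% (-88.8 points, adjusted p = 9.91e-07). In windows reaching 500 bp to either side Zfp57-205 had too few observations to be tested. The same held for the called starts Dnmt3a-208, Dnmt3a-210, Tet3-204 and the one shared by Dnmt3l-202, Dnmt3l-203 and Dnmt3l-206. Of the untested Zfp57 starts, Zfp57-202 at the annotated 5' end was methylated in ASC, at 61.0% and 53.5%. It was at 12.9% and 21.9% in ESC and 91.3% and 86.7% in EpiSC. The untested Zfp57-203 was at 4.4% and 1.7% in ASC, 0% in ESC and 90.5% and 91.9% in EpiSC.

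The stretch of low methylation around a start was measured as adjacent 500 bp bins under 20%, each with at least 20 observations in the group, so that a stretch also ends where coverage does. In ASC, 56 of the 93 starts lay in one (60.2%, against 53.8% of all starts), and in EpiSC 42 (45.2%, against 44.3%). Starts share stretches, and these were 17 distinct ones in ASC and 12 in EpiSC. At Zfp57-201 the stretch was 5000 bp in ASC and 500 bp in EpiSC, at Uhrf1-201 it was 4000 bp and 1500 bp, at Tdg-201 it was 3000 bp and 1000 bp, and at Dnmt3a-203 it was 3500 bp and 1000 bp. At Dnmt3a-201 (3000 bp), and at Tet3-203 (2000 bp), it was as wide in EpiSC as in ASC. With a limit of 30%, Tet3-203 had 3000 bp in ASC and 2000 bp in EpiSC, Uhrf1-201 had 6000 bp and 2000 bp, Zfp57-201 had 5500 bp and 1000 bp, and Tdg-201 had 3000 bp and 1500 bp. Dnmt3l-201 had 2500 bp in ASC and none in EpiSC at either limit.

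**Figure D3:**
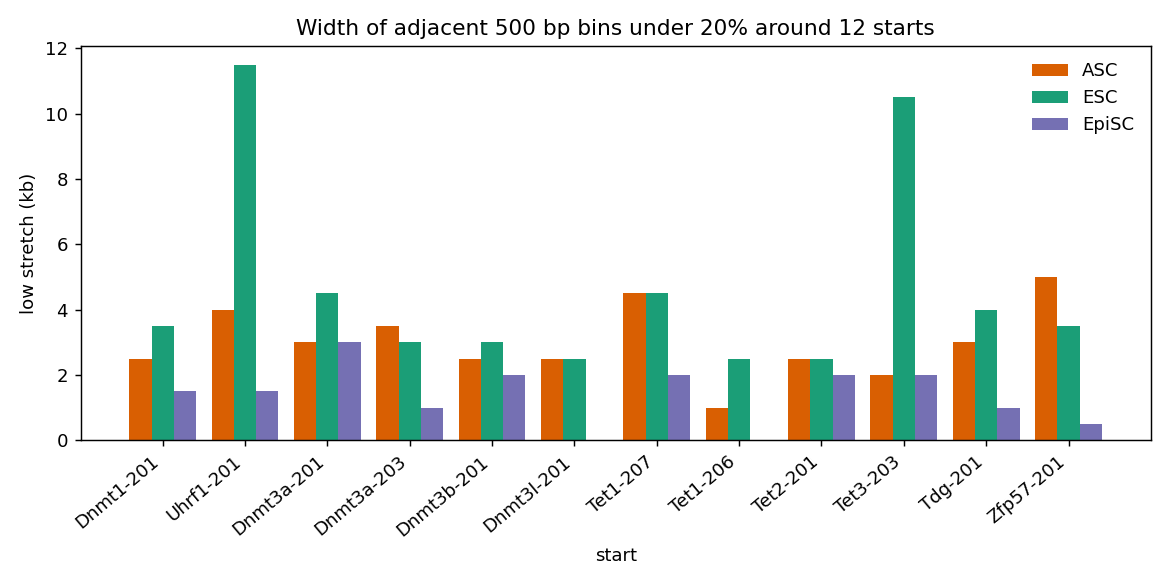
Width (kb) of the run of adjacent 500 bp bins under 20% around 12 starts, by group. The EpiSC bar is absent at Dnmt3l-201 and Tet1-206, and at Dnmt3a-201 and Tet3-203 it is as high as the ASC bar, at 3000 and 2000 bp.

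Bins with ASC under 20% and EpiSC at 80% or more made up 112 of 1109 in the genes and their 10 kb flanks (10.1%), against 2.72% of 1801622 in the genome. They were 17 of 35 at Zfp57, 17 of 69 at Dnmt3l and 36 of 158 at Tet1, but 2 of 200 at Tet3 and 1 of 94 at Dnmt3b. The bins were picked on the levels, so this is a description.

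In gene bodies, less the promoter windows, 9 of the 10 genes were lower in ASC than in EpiSC, and 0 higher, where 65.7% of all gene bodies were lower and 0.0359% higher. The exception, Dnmt3b, was at 62.1% and 61.0% in ASC and 80.9% and 80.2% in EpiSC, a difference of -18.95 points that missed the 20 required (adjusted p = 7.99e-10). Against ESC, 9 of 10 were higher in ASC, where 89.3% of all gene bodies were, and all 10 were higher in EpiSC than in ESC, where 96.8% were. The Zfp57 body was at 7.3% and 7.1% in ASC, 3.2% and 2.0% in ESC and 95.4% and 96.0% in EpiSC, so that ASC differed from EpiSC by -88.5 points (adjusted p = 1.29e-12) and from ESC by 4.6. With the promoter windows kept in the body the Zfp57 difference was -49.0 points and that of Uhrf1 -30.1 instead of -48.0, both still called. In that setting Tet3 (-16.2 points), Tdg (-18.1) and Dnmt3a (-18.3) lost their call, so that 6 of the 10 genes were lower in ASC, where 54.8% of all gene bodies were called in either direction.

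The position of ASC between ESC, set at 0, and EpiSC, set at 1, ran from 0.049 in Zfp57 through 0.32 in Tet1, 0.33 in Dnmt3l, 0.37 in Uhrf1 and 0.41 in Tet2 to 0.53 in Dnmt1, 0.58 in Tdg, 0.66 in Dnmt3a, 0.67 in Dnmt3b and 0.69 in Tet3. The median over these 10 was 0.47, and over all gene bodies called between EpiSC and ESC 0.64, with quartiles of 0.53 and 0.71. Only 0.852% of gene bodies had a lower position than Zfp57, and 6.88%, 7.05% and 8.84% a lower one than Tet1, Dnmt3l and Uhrf1. With the promoter windows kept, the position of Zfp57 was 0.059, of Dnmt3l 0.29, of Tet1 0.32 and of Uhrf1 0.44, and the medians were 0.51 over the 10 genes and 0.65 over all. Among the bodies, Tet1 was at 33.8% and 33.3% in ASC and 82.5% and 82.2% in EpiSC, Dnmt3l at 37.7% and 40.5% and 89.5% and 90.7%, and Uhrf1 at 41.9% and 41.7% and 90.1% and 89.4%. The Tet3 body lost its call without EpiSC replicate 1 (-19.5 points). Tet3 and Dnmt3a, by contrast, were at 66.1% and 66.7% and at 59.4% and 61.1% in ASC.

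**Figure D4:**
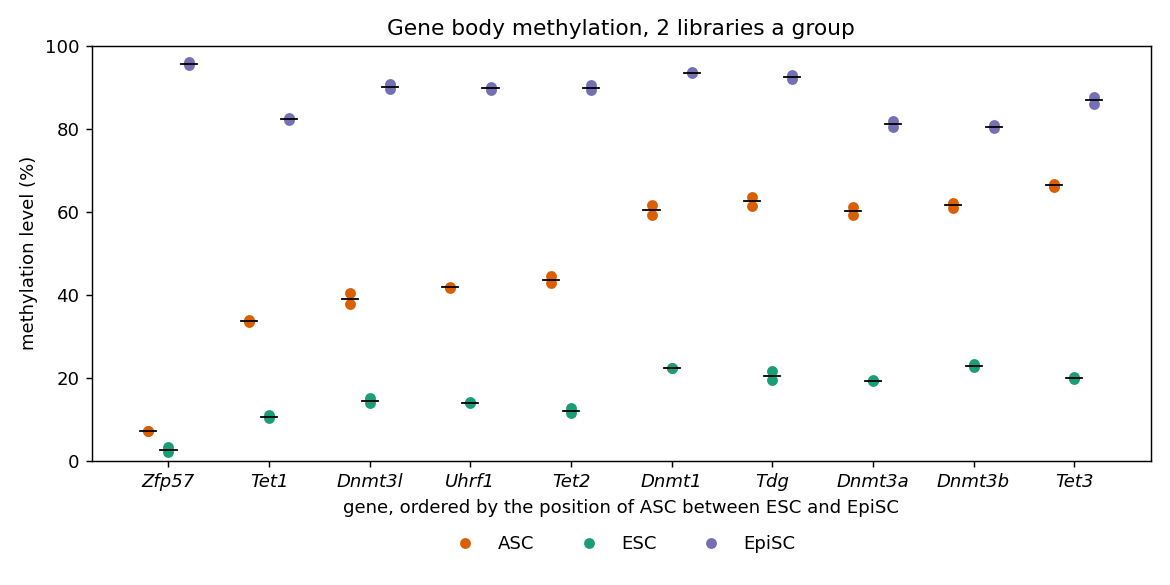
Gene body methylation level (%) of the 10 genes in each library (dots) with the group means (bars), ordered by the position of ASC between ESC and EpiSC. Zfp57, at the left, has ASC at 7.3% and 7.1%, next to ESC, and Tet3, at the right, has ASC at 66.1% and 66.7%.

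In the 10 kb flanks, 16 of 20 were lower and 0 higher in ASC than in EpiSC (68.1% and 0.0389% of all flanks), 15 of 20 higher than in ESC (91.4%) and 20 of 20 higher in EpiSC than in ESC (98.2%). Upstream of Zfp57, ASC was at 10.4% and 21.1% and EpiSC at 79.4% and 81.7% (-64.8 points), and upstream of Dnmt3l, inside Aire, ASC was at 35.1% and 33.0% and EpiSC at 91.2% and 94.5% (-58.8 points). The 4 flanks not called lie downstream of Dnmt1, Dnmt3l, Tet2 and Uhrf1, with differences of -12.0 to -18.6 points. Those of Dnmt1, Dnmt3l and Uhrf1 hold the starts of Eif3g, Icosl and Kdm4b, and were at 54.1%, 44.6% and 34.7% in EpiSC. Called flanks held neighbouring starts as well: Arrdc5 upstream of Uhrf1, Dnmt3c downstream of Dnmt3b and 1190007I07Rik upstream of Tdg. Their differences were -48.1, -30.9 and -25.0 points, with EpiSC at 95.6%, 90.9% and 50.6%. Promoter windows of neighbouring genes were not left out of the flanks, and their part in these differences was not tested. Single libraries decided some calls. Against EpiSC, Tet3 lost its upstream call without ASC replicate 2 (-19.7 points) and its downstream call without EpiSC replicate 2 (-19.98), while Tet2 downstream passed without ASC replicate 2 (-22.2). Against ESC, Dnmt3l downstream lost its call without ESC replicate 1 (18.1 points), and Tdg upstream passed without ASC replicate 2 (21.7) or ESC replicate 1 (20.7).

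A wider list of 51 partners, readers and repair genes gave 125 lower and 0 higher of 294 tested starts in ASC against EpiSC. Of all starts, 30.2% were lower. The calls lay in 35 of the 49 genes tested, a count for which no share over all genes was computed. Of the list's gene bodies, 34 of 51 were lower, where 65.7% of all were. The median difference was -15.8 points over the list's starts, -14.3 over the members' 72 and -8.5 over all starts. Genes were then ranked by their start with the largest called difference. The first 5 were Nsd1 (-97.0 points), Mbd3 (-93.7), Kdm2b (-93.1), Trim28 (-89.8) and Ehmt2 (-88.7). Each value is that of a single start, and the other starts of these genes are not given here. Trim28 is the corepressor that Zfp57 recruits, and Ehmt2 a histone H3 lysine 9 methyltransferase.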

How the data were processed

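PBAT libraries of ASC, ESC and EpiSC (2 each) were analysed. Per the study, the authors trimmed reads with Trim Galore, mapped them to GRCm38 with Bismark 0.16.3 and merged both strands of each CpG with MethPipe. Each deposited file gives the methylation fraction per CpG and the number of reads as coverage counts, not normalized. All 21327445 sites used fell on a CG of GRCm38 when positions were counted from 0. Methylated counts were fraction times coverage, summed over GENCODE M21 promoters, gene bodies and 10 kb flanks. Regions whose libraries all reached 40 observations (63941 promoters, 19510 gene bodies, 41103 flanks) were tested over all 6 libraries with a logistic model whose quasi-binomial dispersion was moderated by limma 3.58.1 (R 4.3.3), two-sided, with Benjamini-Hochberg adjustment over all regions of a kind. The test was checked on simulated data. Coverage of 2.96 to 3.46 per site is shallow, and deeper windows are more precise. The members, lists, test and shown starts were chosen with earlier results of these data known. All members were named, with values for called starts, for further starts of genes whose starts differ in EpiSC, and for gene bodies. Of the wider list, up to 5 genes in each direction were named, by the start with the largest called difference. Alternatives varied the minimum of observations, the test, thinning, high-coverage sites, windows, transcript classes, single libraries and the replicate block.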

Additional observations from a re-analysis of the deposited data

How the results depend on the processing

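Of the gene bodies (9, 9 and 10 called), 6 were called for ASC minus EpiSC with promoter windows kept. The counts of flanks (16, 15 and 20) stayed within 1.5 times under every alternative run, as did the starts in a low stretch with a limit of 30% (57 in ASC and 44 in EpiSC). Promoter counts moved for ASC minus EpiSC (29 of 72 starts tested) to 6 of 37 with a minimum of 100 observations, 18 of 70 with windows of 500 bp on each side, 18 of 50 with protein-coding transcripts only and 58 of 72 with no minimum difference, the last chosen after seeing the data. Of all starts, 17.2%, 29.0%, 26.4% and 59.0% were then called in either direction. For ASC minus ESC (21 of 72) they moved to 5 of 37 with 100 observations and 10 of 50 with protein-coding transcripts (10.4% and 20.8% of all starts), and for EpiSC minus ESC (35 of 72) to 7 of 37, 21 of 50 and, with no minimum difference, 65 of 72 (23.5%, 38.5% and 77.3%). Leaving out 1 library gave 23 to 30, 20 to 21 and 35 to 40 starts, with a lone library assumed to vary like the other groups. The number of starts tested can be larger in these runs. No share over all starts is given beside these counts, so they describe the members only.

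Deviations of replicate 1 from the group mean were hardly correlated between groups at promoters (0.013, -0.0026 and -0.0016). These deviations include counting error, which lowers such correlations, so the values cannot decide whether replicate numbers pair the libraries. With the replicate block, 27, 21 and 35 starts were called, again with no share over all starts beside them. Gene bodies of Tet3 (-16.2 points), Tdg (-18.1) and Dnmt3a (-18.3) lost their call with promoter windows kept. Small differences that were not called changed sign: without EpiSC replicate 2, Tet3 starts at 83441632 (0.53), 83441675 and 83441678 (0.29 each) and 83456392 (0.32), which without EpiSC replicate 1 were at -7.65, -8.70 (both) and -1.33, and in windows of 500 bp on each side Tet2 133544302 (0.0007) and 133544368 (0.0042), Tet3 83441632 (1.74), 83441675 (0.57) and 83441678 (0.12), Tet1 62865304 (1.34) and Tdg 82629828 (0.023), 82629859 (0.028) and 82629876 (0.028). The cause was not tested. With 2 libraries a group and about 3 reads a site, single CpG sites were not compared.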
